A study of Mus musculus with 7 samples.

Results

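The nuclear genes for the subunits of the 5 oxidative phosphorylation complexes were examined in bulk RNA-Seq of mouse glioma tissue. They were chosen by symbol alone, as every gene of the table named in the Nduf (a, b, c, s or v), Sdh, Uqcr, Cox4 to Cox8 or Atp5 series, which gave 83 of 19257 genes. By symbol, 37 fell to complex I, 4 to complex II, 8 to complex III, 17 to complex IV and 17 to complex V. Of these, 80 had a mean of at least 10 normalized counts (reads divided by a size factor per library) and entered the comparison. The 3 below that limit were Ndufs5, Cox7b2 and Cox8b.

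Complexes I to IV form the respiratory chain of the inner mitochondrial membrane: I and II take electrons from NADH and succinate, III passes them to cytochrome c, and IV hands them to oxygen. Complexes I, III and IV pump protons as they do so, and complex V, the ATP synthase, makes ATP as the protons flow back through it. Except for complex II, each complex combines subunits encoded in the nucleus with subunits encoded in mitochondrial DNA. In brain this system supplies most of the ATP that neurons spend on ion pumping and synaptic transmission, while proliferating tumor cells are known for a high rate of glycolysis.

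The libraries came from endpoint brain tumors, 1 library per brain, of 3 animals labelled 3xCr (3xCR, replicates 2, 3 and 4) and 4 labelled 3xCr; GPC6 (GPC6, replicates 1 to 4). Tumors of both groups were raised by in utero electroporation of a CRISPR-Cas9 construct into progenitors lining the lateral ventricles, with guides against tumor suppressors that include Nf1 and Trp53. The GPC6 tumors received in addition a piggyBac transposon that overexpresses GPC6, a glypican, which is a heparan sulfate proteoglycan bound to the cell surface. The plasmids enter only part of the progenitors, tissue was dissected under a fluorescence microscope from the mixture of tumor and host brain, CD-1 and C57BL/6 mice were both in use, and the age, sex and strain behind each library are not given in the sources used here.

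The libraries held 7197692 to 18879762 reads on genes. The Gpc6 gene stood at 217, 226 and 126 normalized counts in the 3xCR libraries and at 675, 263, 3434 and 5084 in GPC6 replicates 1 to 4, so that GPC6 replicate 2 lay close to the 3xCR libraries. Cell types were mixed unequally. All 15 of 15 pan-neuronal markers were measured, and their summed level ran from 9398 to 16269.9 normalized counts in 3xCR and from 12118 to 82227 in GPC6, the highest in GPC6 replicate 1 and the next highest, 45915, in GPC6 replicate 3. The sum of 15 proliferation markers was 9123 to 19093 in 3xCR and 1691 to 21782 in GPC6, the lowest in GPC6 replicate 1. The sum of 8 choroid plexus markers, 201 to 3780 in 3xCR and 31.9 to 12747 in GPC6, was highest in that library. Myelinating oligodendrocytes, by 10 markers, ran from 67894 to 85910.0 in 3xCR and from 16081 to 114572 in GPC6. Fewer cells of a type and less RNA per cell cannot be told apart in bulk tissue, and these mixtures stand beside every value below.

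One member, Ndufs5, was listed with almost no reads, and part of its sequence is shown because it recurs nearly unchanged in a second gene. Ndufs5, an accessory subunit of complex I (GRCm38 chr4:123712710-123718202), was listed with 1 read in the 7 libraries together, in GPC6 replicate 3, while BC002163 (GRCm38 chr16:42955631-42955949) was listed at 527, 514 and 584 normalized counts in 3xCR and 458, 483, 500.3 and 516 in GPC6. The 319 bases of BC002163 align without a gap to the Ndufs5 transcript and are identical at 317 positions, with a longest identical run of 214 bases. Of the 50-base windows of the Ndufs5 transcript 31.1% also occur in BC002163. A stretch of 60 bases of the Ndufs5 coding sequence and its counterpart hold both differences, which are in capitals.
Ndufs5: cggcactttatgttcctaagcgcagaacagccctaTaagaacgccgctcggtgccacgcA
BC002163: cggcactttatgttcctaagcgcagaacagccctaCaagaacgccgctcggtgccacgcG
How the authors' counting treated reads that fit more than 1 place is not given in the sources used here, so whether reads of Ndufs5 were listed under BC002163 was not tested. Parts of 26 members occur in transcripts of other genes over more than 10% of their 50-base windows. The share was above 50% for Atp5l, at 84.8%, and for Atp5o, at 89.8%. The gene sharing most windows was the annotated copy Gm10221 for Atp5l and the overlapping Donson for Atp5o.

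Promoters of 3 members that the comparison turns on are printed next, to show how differently they are built. RefSeq (GRCm38.p6) gave a promoter for 69 of the 83 members, 75 windows of 280 bases in all, running from 250 bases before to 30 bases after the transcript start. They were searched on both strands for the letters GCGCANGCG (nuclear respiratory factor 1, NRF1), CCGGAAG (ETS factors such as GABP) and AAGATGGCG (YY1), all factors known for nuclear genes of the respiratory chain. The capitals mark matches, and no matches overlap in the windows shown.
Sdha (chr13:74350211-74350490, minus strand): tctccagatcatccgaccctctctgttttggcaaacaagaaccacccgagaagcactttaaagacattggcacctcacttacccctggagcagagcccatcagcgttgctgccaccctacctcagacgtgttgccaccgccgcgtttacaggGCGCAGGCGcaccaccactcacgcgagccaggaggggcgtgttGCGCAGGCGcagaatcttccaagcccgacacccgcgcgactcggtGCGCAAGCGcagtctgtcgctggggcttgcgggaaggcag
Atp5l (chr9:44920713-44920992, minus strand): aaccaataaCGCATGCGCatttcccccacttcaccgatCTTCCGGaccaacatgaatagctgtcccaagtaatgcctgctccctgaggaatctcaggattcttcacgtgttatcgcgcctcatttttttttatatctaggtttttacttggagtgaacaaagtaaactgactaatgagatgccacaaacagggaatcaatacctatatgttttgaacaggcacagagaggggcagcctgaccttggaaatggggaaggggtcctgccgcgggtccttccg
Cox7a2l (chr17:83514304-83514583, minus strand): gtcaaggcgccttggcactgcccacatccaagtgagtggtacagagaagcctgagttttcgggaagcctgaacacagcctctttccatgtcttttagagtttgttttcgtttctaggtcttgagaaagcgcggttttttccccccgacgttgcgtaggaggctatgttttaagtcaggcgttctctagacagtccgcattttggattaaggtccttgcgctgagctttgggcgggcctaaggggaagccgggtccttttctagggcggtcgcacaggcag
Sdha held 3 NRF1 matches, Atp5l 1 NRF1 and 1 ETS match, and Cox7a2l none. Over the member promoters, 26.7% held the NRF1 letters, against 6% of the 32851 promoters of the table. The ETS letters stood in 21.3% of member promoters against 8.45%, and the YY1 letters in 2.67% against 1.05%. A match of letters is a description and not a binding site.

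The subunit genes were abundant. Per kilobase of transcript, the median level was 1332 normalized counts for complex I, 1062 for complex II, 2414 for complex III, 3240 for the 10 common subunits of complex IV and 3254 for complex V. The highest levels per kilobase were those of Atp5b, the catalytic beta subunit of ATP synthase, at 7294, and Cox4i1, the common form of subunit 4 of complex IV, at 6878. Among the Nduf genes Ndufa4 was highest at 5341 per kilobase; it carries a complex I symbol and is placed with complex I here by that symbol, although its protein is now counted to complex IV. In each library the 80 members together took between 134055 and 164832 normalized counts, a range of 1.23-fold. By complex the range ran from 1.14-fold in complex V to 1.6-fold in complex IV. Of other mitochondrial lists, the carriers ranged 1.1-fold and the assembly factors 1.21-fold in their sum. The genes of the tricarboxylic acid cycle ranged 1.53-fold, the biogenesis regulators 1.55-fold and the mitochondrial ribosomal genes 1.62-fold. The sum of the 81 listed genes of the cytosolic ribosome ranged 2.97-fold. The median SD of log2 values within groups was 0.22 for the 74 members with a mean of at least 100 normalized counts and 0.43 for all genes at that level.

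**Figure D1:**
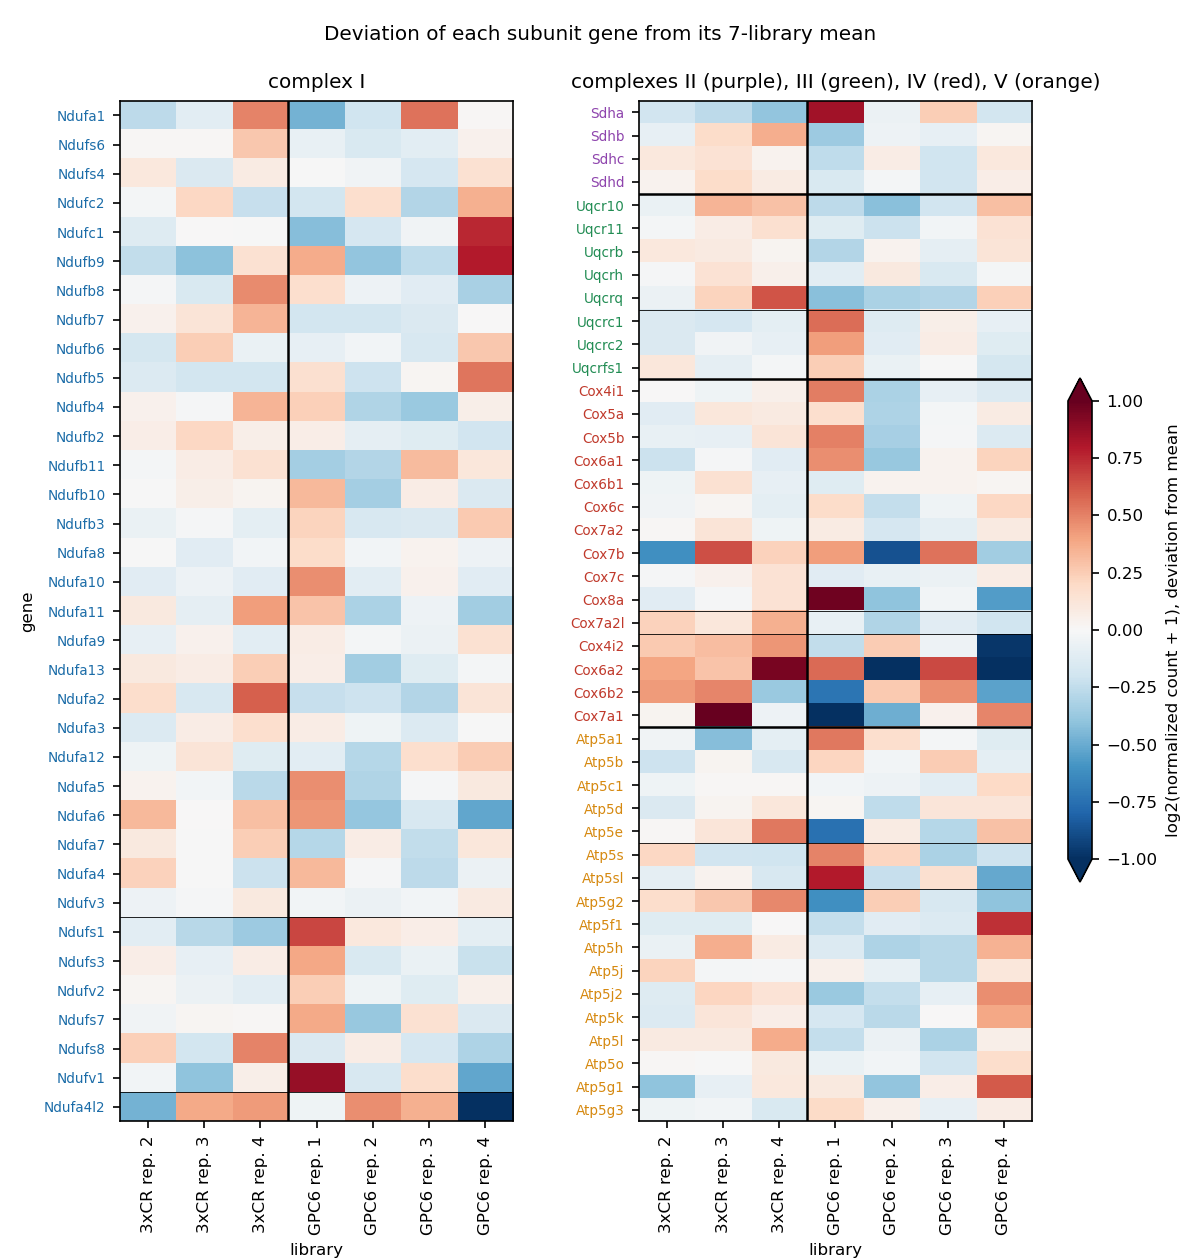
Each row is a subunit gene, 79 in all, each column 1 of the 7 libraries, and the colour gives the difference of log2(normalized count + 1) from the gene's mean over the libraries, with values past 1 shown at the end of the scale. Thin lines part subunit classes and thick lines part complexes; the core genes of complexes I and III are mostly red in GPC6 replicate 1.

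The series asks what GPC6 contributes to the tumor, and the comparison of these genes asks whether their expression differed between GPC6 and 3xCR. The medians of the 5 complexes lay between -0.17 and 0.0029, beside -0.019 for all genes. Transcripts of more than 1500 bases made up 11934 of all genes but 16 of the members, and changes by length are given below. The median log2 fold change (GPC6 over 3xCR, limma fit of log2(normalized count + 1)) was -0.025 for complex I, -0.17 for II, -0.12 for III, -0.055 for IV and 0.0029 for V. Over all 80 members it was -0.042 (14782 genes were tested in all), with 29 members higher and 51 lower in mean, a split that was 40 and 40 when libraries were scaled to an equal total. At an adjusted p under 0.05, limma called 0 members (0% of all genes were called), and the smallest adjusted p over all genes was 0.73. At an unadjusted p under 0.05 the count was 0 of 80, where 4.66% of all genes passed. DESeq2 gave 1 member, Cox7a2l, at that level, where 1793 of the 14782 genes passed. With edgeR 0 members passed, where 991 of all genes did.

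The measured changes were small as well as uncalled. No member had a log2 fold change beyond 1 in either direction, as 1898 of all genes did, and the extremes were -0.95 for Cox6a2 and 0.49 for Sdha. For 69 of the 80 members the 95% interval of the change lay wholly within a 2-fold change either way, which held for 5337 of the 14782 genes. Of the 11 others, 5 were genes of complex IV, the scarce isoforms among them.

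**Figure D2:**
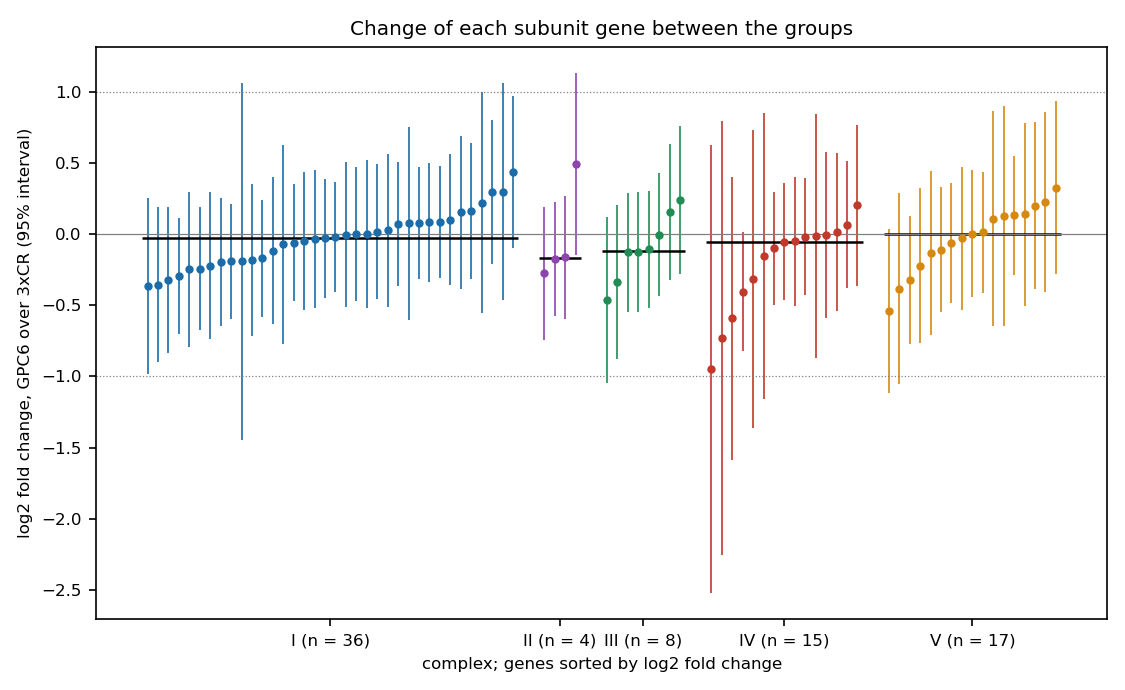
Points are the log2 fold changes (GPC6 over 3xCR) of the 80 genes with 95% intervals, sorted within each complex; black bars are the medians of the complexes, -0.025, -0.17, -0.12, -0.055 and 0.0029 from I to V. Dotted lines mark a 2-fold change, which no point crosses.

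Both groups were fully apart for 7 members. In 2 of them, 2.5% of members against 2.8% of all genes, all GPC6 libraries were higher, and in 5, 6.25% against 3.52%, all were lower. These counts turned on single libraries, as did those of all genes. Higher were 4 members (5%) without 3xCR replicate 3, where 4.88% of all genes were, and 5 (6.25%) without GPC6 replicate 2, where 7.94% were. Lower were 8 (10%) without 3xCR replicate 2, where 10.6% of all genes were, 8 (10%) without GPC6 replicate 1, against 5.19%, and 14 (17.5%) without GPC6 replicate 4, against 7.76%. At an equal upper quartile 0 were higher and 8 (10%) lower, against 1.53% and 5.58% of all genes. In 6 of the 7 the groups were apart by less than counting error, which covers the sampling of reads and not the spread between tumors.

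Ndufs1, the largest core subunit of complex I and the carrier of several of its iron-sulfur clusters, had 1007, 893 and 841 normalized counts in 3xCR and 1720.3, 1166, 1133 and 1009 in GPC6. Its log2 fold change was 0.43 ± 0.23 (SE, 3 against 4 libraries; limma adjusted p = 0.73). Its highest value was that of GPC6 replicate 1, and the groups were parted by 0.24%, with a counting error of 3.95% on the ratio of the facing libraries. Sdha, the flavoprotein of succinate dehydrogenase that complex II shares with the tricarboxylic acid (TCA) cycle, had 2315, 2203 and 2003 in 3xCR and 4714, 2536, 3129 and 2323 in GPC6. Its log2 fold change was 0.49 ± 0.28 (SE; limma adjusted p = 0.73). Here too GPC6 replicate 1 was far above the rest, and the gap between the groups was 0.34% beside a counting error of 2.61%. Without that library the change was 0.28. The other 3 genes of complex II, Sdhb, Sdhc and Sdhd, were lower in mean in GPC6, with log2 fold changes of -0.28, -0.16 and -0.17.

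Cox7a2l, which helps join complexes III and IV into supercomplexes, was the member with the smallest p. It had 2861, 2633 and 3126 normalized counts in 3xCR and 2315, 1977, 2258 and 2120.4 in GPC6, a mean of 2873 ± 246 (SD, n = 3) against 2168 ± 151 (SD, n = 4). All 4 GPC6 values lay below the 3xCR values, with a gap of 13.7% between the facing libraries and a counting error of 3.19% on their ratio. The log2 fold change was -0.41 ± 0.18 (SE; limma adjusted p = 0.73), with a 95% interval from -0.82 to 0.01. Of its 50-base windows 17.7% also occur in other genes, with Gm6969 sharing the most.

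Ndufb7 and Ndufa13, accessory subunits of complex I, and Atp5l, subunit g of the membrane part of ATP synthase, were lower in each GPC6 library by small margins. Ndufb7 had 1119, 1183 and 1370.2 in 3xCR and 954, 955, 979 and 1085 in GPC6, a log2 fold change of -0.30 ± 0.18 (SE). Ndufa13 had 2049, 2021 and 2280.4 in 3xCR and 2008, 1511, 1768 and 1892 in GPC6, a change of -0.24 ± 0.19. It overlaps Tssk6 on the other strand, and 28.5% of its windows also occur in other genes, with Tssk6 sharing the most. In both, the margin between the groups, 3.12% and 0.67%, was below the counting error of 3.79% and 3.51%. Atp5l had 2284, 2276 and 2772 against 1818, 2054, 1724 and 2234, a change of -0.32 ± 0.19, with a margin of 1.91% and a counting error of 2.95%. The seventh gene was Cox4i2, an isoform of complex IV described below.

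**Figure D3:**
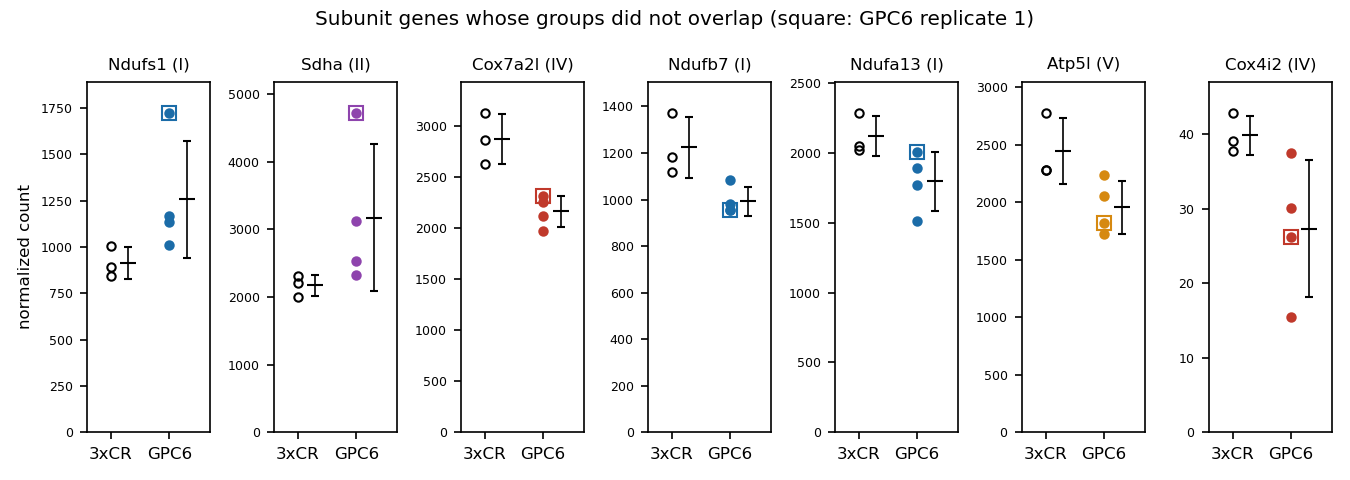
Each panel shows 1 of the 7 subunit genes whose groups did not overlap, with normalized counts from 0 on the vertical axis, open circles for the 3 3xCR libraries, filled circles for the 4 GPC6 libraries and bars for mean ± SD. A square marks GPC6 replicate 1, which lies at 1720.3 for Ndufs1 and 4714 for Sdha, far above the other libraries.

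Within the complexes the catalytic core and the accessory subunits did not move alike between libraries. The core of complex I carries the electron transfer from NADH to ubiquinone, and 6 of its 7 measured nuclear genes had their highest value in GPC6 replicate 1, which was the highest library for 31.3% of all genes tested. Ndufv1, which binds NADH, had 1537, 1190 and 1633 in 3xCR and 2875, 1409, 1771 and 1098 in GPC6. GPC6 replicate 1 was the highest and GPC6 replicate 4 the lowest of the 7 libraries. The log2 deviation from each gene's 7-library mean was averaged over the genes of a class. By that score the core of complex I stood at 0.37 in GPC6 replicate 1 and between -0.16 and 0.031 in the other libraries. The 28 accessory genes of complex I stood at 0.054 there, within their range elsewhere of -0.16 to 0.11. In GPC6 replicate 4 the order was the reverse, with -0.16 for the core and 0.086 for the accessory genes. Without GPC6 replicate 1 the median log2 fold change of the complex I core went from 0.068 to -0.041.

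In complex III, too, core and accessory genes parted. Its 3 core genes, Uqcrc1, Uqcrc2 and the Rieske iron-sulfur protein Uqcrfs1, were all highest in GPC6 replicate 1. Uqcrc1 had 2472, 2432 and 2554 in 3xCR and 4028, 2506, 2850.2 and 2589 in GPC6. Outside replicate 1 its values spanned 2432 to 2850.2, and the log2 fold change was 0.24 ± 0.23 (SE; limma adjusted p = 0.77). Uqcrfs1 had 1368, 1184 and 1243 against 1492, 1202, 1258 and 1115, with groups that overlapped fully and a change of -0.0037 ± 0.19. The 3 core genes stood at 0.41 in GPC6 replicate 1 and the 5 accessory genes at -0.24, their lowest value. The accessory genes were the higher in 3xCR replicates 2, 3 and 4 and in GPC6 replicate 4, at -0.011, 0.17, 0.23 and 0.16. The core stood at -0.059, -0.098, -0.068 and -0.13 in these libraries. In GPC6 replicates 2 and 3 the core was the higher, at -0.10 and 0.044 against -0.16 and -0.15. All 5 accessory genes were lower in mean in GPC6, with a median change of -0.13. The largest difference was that of Uqcrq, the small ubiquinone-binding protein, with 1689, 2055 and 2729 in 3xCR and 1318, 1413, 1434 and 2074 in GPC6. GPC6 replicate 4 overlapped the 3xCR values, and the change was -0.46 ± 0.25 (limma adjusted p = 0.73).

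**Figure D4:**
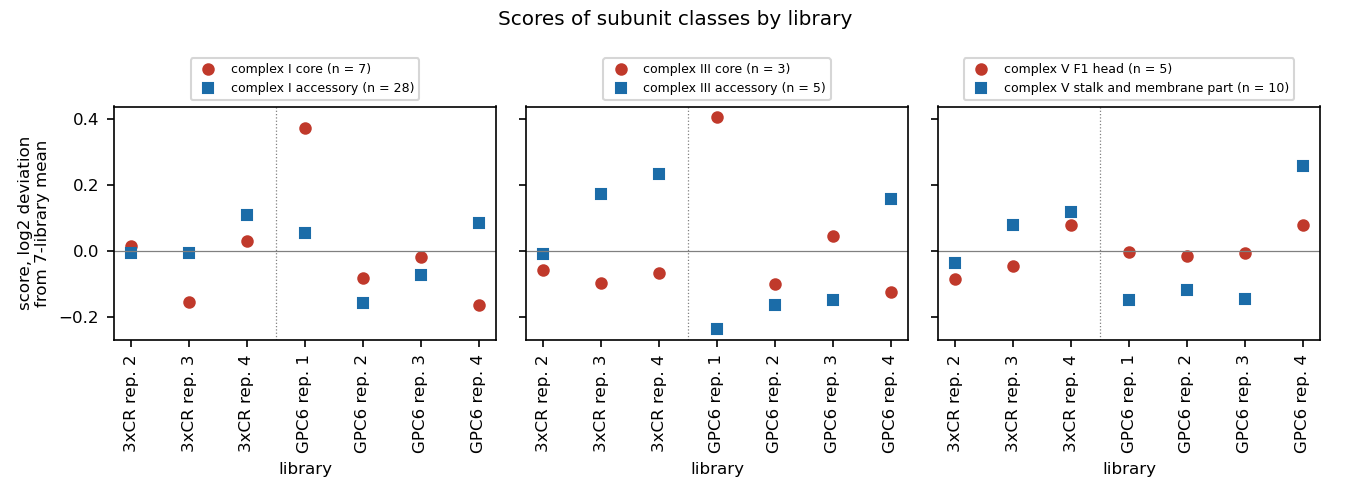
The vertical axis is the mean, over the genes of a class, of the log2 deviation from the 7-library mean. Each point is 1 library, and a dotted line parts 3xCR from GPC6. Circles are the core of complexes I and III or the F1 head of complex V, squares the accessory genes or the stalk and membrane part: the cores reach 0.37 and 0.41 in GPC6 replicate 1, and the stalk and membrane part reaches 0.26 in GPC6 replicate 4.

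Core and accessory genes also differ in transcript length, and that moved with the same library. Members with a median transcript of more than 1500 bases, 16 genes, had their highest value in GPC6 replicate 1 in 10 cases and their lowest in 2, with a median deviation of 0.44 there. The 27 members of up to 600 bases had a median of -0.12. Over all genes tested the medians in that library were 0.042 above 1500 bases and -0.26 up to 600. The median log2 fold change between the groups differed by length as well. Over all genes it was -0.28 up to 600 bases, -0.30 from 600 to 1000, -0.19 from 1000 to 1500 and 0.031 above 1500. For the members it was -0.13, -0.035, -0.15 and 0.16 in the same order. Across the 80 members, which share each library's depth and preparation, Pearson's r between log2 length and deviation was 0.44 in GPC6 replicate 1 and -0.20, -0.38 and -0.30 in the 3xCR libraries. In GPC6 replicates 2, 3 and 4 it was 0.14, 0.13 and -0.11. The part of length, and of the neuronal, choroid plexus and proliferation markers of GPC6 replicate 1, in the core values was not tested.

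**Figure D5:**
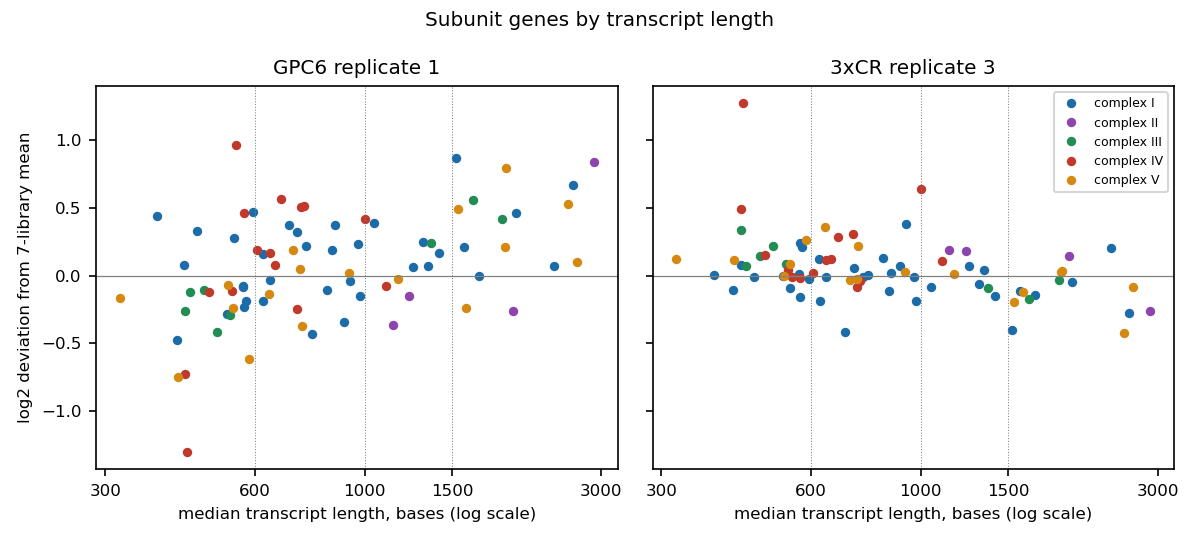
Each point is 1 of the 80 subunit genes, by median transcript length in bases on a log axis and by log2 deviation from its 7-library mean, in GPC6 replicate 1 (left) and in 3xCR replicate 3 (right). The 16 transcripts of more than 1500 bases have a median of 0.44 on the left (r = 0.44 over all 80 genes) and of -0.12 on the right (r = -0.38), with single genes to either side of 0.

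The ATP synthase genes had the largest summed counts of the 5 complexes, and a different library stood out among them. Atp5a1 and Atp5b, the alpha and beta subunits that form the catalytic F1 head, had means of 7904 ± 1098 and 12861 ± 1106 in 3xCR (SD, n = 3) and 9991 ± 2076 and 14811 ± 1782 in GPC6 (SD, n = 4). Their log2 fold changes were 0.33 ± 0.26 and 0.20 ± 0.25 (SE; limma adjusted p = 0.75 and 0.83). The 10 genes of the stalk and membrane part, through which protons pass, had their highest value in GPC6 replicate 4 in 5 cases, as 18.4% of all genes did, and their sum there was 27397 normalized counts against 20061 to 24282 in the other libraries. Atp5f1, the b subunit of the peripheral stalk, had 3403, 3391 and 3696 in 3xCR and 3125, 3407, 3364 and 6137 in GPC6. The last value, from GPC6 replicate 4, stood apart from the 6 others. A pair of accessory genes of complex I had the same form: Ndufb9, at 3429 in GPC6 replicate 4 against 1486 to 2566 elsewhere, and Ndufc1, at 1110.1 against 488 to 660.

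The c subunit, which builds the rotor ring in the membrane, is made from 3 genes that encode the same mature peptide, Atp5g1, Atp5g2 and Atp5g3. Their summed counts were even, 7430 ± 481 in 3xCR (SD, n = 3) and 7037 ± 382 in GPC6 (SD, n = 4), while their shares were not. Atp5g2 had 2900.1, 3082 and 3573 in 3xCR and 1674, 3043, 2286 and 1941 in GPC6, so that GPC6 replicate 2 alone lay among the 3xCR values. Its log2 fold change of -0.54 ± 0.25 (SE; limma adjusted p = 0.73) had the second smallest p of the members. Of the 3 genes' counts it took 41.4% to 45.2% in 3xCR and 24.9%, 41.9%, 34.1% and 26.0% in GPC6 replicates 1 to 4. Atp5g1 took 32.9% in GPC6 replicate 4, its highest share, and Atp5g3 49.5% in GPC6 replicate 1. The log2 fold changes of Atp5g1 and Atp5g3 were 0.22 ± 0.27 and 0.13 ± 0.18.

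Complex IV is the one with tissue isoforms, and the common forms dominated in every library. Cox4i1 had 5136, 4973 and 5304 normalized counts in 3xCR and 7311, 4115, 4845 and 4667 in GPC6, with GPC6 replicate 1 highest and GPC6 replicate 2 lowest of the 7. Cox8a, the common subunit 8, had 3018, 3243 and 3622 against 6407, 2475, 3201 and 2225, also highest in GPC6 replicate 1 but lowest in GPC6 replicate 4. Of the 10 common subunits, 5 were highest in GPC6 replicate 1 (31.3% of all genes were) and 7 lowest in GPC6 replicate 2 (11.5% of all genes were), and their sum was 34259 and 20884 in these libraries against 23907 to 27616 in the other 5. Cox6a1 and Cox7a2, the common forms of subunits 6a and 7a, changed by 0.20 ± 0.24 and -0.055 ± 0.18 (SE). Cox6b1 was one of the evenest, from 2264 to 2745.

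Cox7b had the largest SD of log2 values within groups of the 10 common subunits, 0.66, followed by Cox8a with 0.54. It had 1680.0, 4007 and 3014 in 3xCR and 3429.8, 1400.0, 3739 and 2012 in GPC6, a range of 2.86-fold that ran within both groups. The groups overlapped fully and the change was -0.15 ± 0.43 (SE; limma adjusted p = 0.92).

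The rarer isoforms were all scarce, and the 4 of complex IV that entered the comparison were lower in mean in GPC6. Cox4i2, the lung form of subunit 4 that rises in low oxygen, had 37.8, 39.1 and 42.8 normalized counts in 3xCR and 26.3, 37.5, 30.2 and 15.4 in GPC6. It rested on 15 to 69 reads a library, and its change was -0.59 ± 0.43 (SE; limma adjusted p = 0.73). Cox6a2 and Cox7a1, the heart and skeletal muscle forms, changed by -0.95 ± 0.68 and -0.73 ± 0.66, and Cox6b2, the testis form, by -0.32 ± 0.45. Set against the common form of the same subunit and per length, Cox4i2 made up 0.34% to 0.94% in the 7 libraries, Cox6a2 0.30% to 1.7%, Cox6b2 1.37% to 2.95% and Cox7a1 0.35% to 2.36%. Cox7b2 had 0 to 19 reads a library, the most in 3xCR replicate 2, and Cox8b 0 to 14, the most in 3xCR replicate 3. Several libraries lay at or near the 3 reads that a count of 0 allows. The mean of Cox7b2 was 4.39 normalized counts in 3xCR and 5.69 in GPC6. Ndufa4l2, a paralog of Ndufa4 induced in low oxygen, had 11 to 37 reads a library, 0.24% to 0.81% of the pair per length, and changed by -0.19 ± 0.54. Ndufa4 itself changed by -0.0037 ± 0.22.

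Ndufa6, an accessory subunit, had the lowest change of complex I, with 1189, 952 and 1169 in 3xCR and 1291, 725, 850 and 664 in GPC6. GPC6 replicate 1 was its highest library and the other 3 its lowest, and the change was -0.36 ± 0.27 (SE; limma adjusted p = 0.73).

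The genes around the complexes were taken as lists. Of 50 assembly factors, 0 were called by limma at an adjusted p under 0.05 and 3 had an unadjusted p under 0.05 (4.66% of all genes did). In each GPC6 library 1 was higher and 5 lower, where 2.8% and 3.52% of all genes were. The median change was -0.048. It moved with single libraries, to -0.14 if GPC6 replicate 4 was left out and to -0.0055 if GPC6 replicate 3 was. Ttc19, a complex III assembly factor, had 311, 289 and 224 in 3xCR and 853, 314, 437 and 441 in GPC6, a change of 0.81 ± 0.35 (SE; limma adjusted p = 0.73). Coa6, a copper chaperone for complex IV, had 161, 207 and 217 against 104, 117, 111 and 134, a change of -0.73 ± 0.25 with the same adjusted p. In the list of 24 carriers and subunits outside the symbol rule, such as cytochrome c and the ADP/ATP carrier Slc25a4, the median change was -0.0063 with 12 higher and 12 lower. The 20 biogenesis regulators had a median of -0.12, which was 0.070 without GPC6 replicate 1, and their coactivator Ppargc1a had 77.2 ± 50.9 (SD, n = 3) in 3xCR and 186 ± 170 (SD, n = 4) in GPC6, with 431 in GPC6 replicate 1.

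Pathways that feed the chain lay to the other side in mean. Of 18 TCA cycle genes, 16 were higher in mean in GPC6 with a median change of 0.27, and 0 were called by limma (0 had an unadjusted p under 0.05). In each GPC6 library 3 were higher, where 2.8% of all genes were. Without GPC6 replicate 2 the count was 10 (7.94% of all genes), and without 3xCR replicate 3 it was 6 (4.88% of all genes). The fit without GPC6 replicate 2 gave 2 of the 18 an unadjusted p under 0.05, as it did 1399 of all 14782 genes. Suclg2, a subunit of succinyl-CoA ligase with the lowest change of the list, had 856, 920.0 and 689 in 3xCR and 510.1, 630.3, 758 and 1088.5 in GPC6, a change of -0.18 ± 0.29 (SE; limma adjusted p = 0.86), and the groups overlapped. Of 19 glycolysis genes 17 were higher in mean with a median of 0.29, which was 0.15 without 3xCR replicate 2 (13 higher) and 0.53 without 3xCR replicate 3. They were led by the neuronal enolase Eno2, with 1491, 921 and 460 in 3xCR and 8940, 756, 4976 and 1394 in GPC6. Its values in GPC6 replicates 1 and 3 followed the order of the pan-neuronal markers. Eno2 is itself among those markers, so this likeness is partly built in. The 77 mitochondrial ribosomal genes had a median of -0.21 with 64 lower in mean, and the 79 cytosolic ones a median of -0.53 with all 79 lower in mean; limma called 0 genes of any of these lists. Both medians depended on single libraries. Without GPC6 replicate 1 they were -0.11 and -0.32. The first was -0.13 without 3xCR replicate 4 and -0.36 without GPC6 replicate 4. The second was -0.41 without 3xCR replicate 4, -0.72 without 3xCR replicate 2 and -0.74 without GPC6 replicate 4. The part of cell mixture in these differences was not tested.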

How the data were processed

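Endpoint glioma tissue of 3 3xCR and 4 GPC6 mice was sequenced, 1 library per brain. The authors aligned TruSeq stranded mRNA reads to mm10 with STAR 2.5.0a and deposited counts divided by DESeq2 1.20.0 size factors, a normalized signal per gene without length correction. The counting of multi-mapping or antisense reads is not given in the sources used here. Of 19282 table entries, 25 had names turned into dates (0.254% to 0.361% of reads) and were left out. Whole reads were recovered within a tolerance of 0.01 for 100% of values. In the smallest library a count of 0 allows 4.64 normalized counts (3 reads, counting error only).

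The members and lists were chosen with earlier results of these data known. limma 3.58.1 (R 4.3.3) was fitted to log2(normalized count + 1) with a variance trend over the 14782 genes with a mean of at least 10, two-sided, with Benjamini-Hochberg adjustment over all of them. Fold changes are on that scale and understate the change of scarce genes. The fit was tested on simulated data. Alternatives on recovered reads were edgeR 4.0.16, DESeq2 1.42.0 and voom, besides other pseudocounts, filters, scalings, library weights, a replicate block and left-out libraries. Lengths, for levels per kilobase, are medians over GENCODE M21 basic coding transcripts. The counting error of a ratio of facing libraries is the Poisson error of their reads.

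The rule for named genes took, per complex, the members of highest mean and of largest and smallest change, the 6 of smallest p, fixed isoform pairs and central catalytic subunits, and per list its ends and its highest mean. Atp5f1, Atp5l, Coa6, Lyrm7, Ndufa13, Ndufb9, Ndufc1, Sdhc, Sdhd and Uqcrc2 were named after their values were seen. Some genes that the rule takes are not reported here. The labels give no separate batch, and p-values measure the spread between these tumors. The ribosomal RNA gene Rn45s parted the groups, at 260634 to 302419 normalized counts in 3xCR and 92933 to 154424 in GPC6. The cause of that difference was not tested.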

Additional observations from a re-analysis of the deposited data

Results flagged for a closer look

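Within the 4 GPC6 libraries, 51 quantities were examined for 1 library lying far from the rest by Dixon's ratio, and 5 passed, where chance gives about 1 in 20. The summed normalized count of the complex I core was 13460 in GPC6 replicate 1, with 9426 to 9961 in GPC6 replicates 2 to 4 and 9194 to 10507 in 3xCR. The complex II sum was 9006 in that library against 7694 to 7785 and, in 3xCR, 7527 to 8018. Of its genes only Sdha was high in GPC6 replicate 1, at 4714. Sdhb and Sdhc had their lowest values of all libraries there, 1612 and 1379, and Sdhd, at 1301, lay below every 3xCR library. Cox6b1 was low there at 2264, with 2492 to 2530.2 in the other 3 and 2330.2 to 2745 in 3xCR. Cox8b was at 4.64 normalized counts there, which is 3 reads, and at 0 in the other 3. The stalk and membrane part of complex V summed to 27397 in GPC6 replicate 4, with 20061 to 21001 in GPC6 replicates 1 to 3 and 21908 to 24282 in 3xCR. The causes were not tested.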

How the results depend on the processing

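Of 20 alternatives, 19 left 0 members at an adjusted p under 0.05. With library weights (arrayWeights) 4 were called, Atp5h, Sdha, Uqcr10 and Uqcrq, which is 5% of members where 13.3% of all genes were called. The member median log2 fold change, -0.042 in the fit reported, moved by less than its spread between replicates in all 20, from -0.10 at an equal upper quartile to 0.0052 at an equal total, where 40 members were higher and 40 lower. At an equal upper quartile 0 members were higher and 8 lower in every GPC6 library; with GPC6 replicates 1 and 2 both left out these counts were 7 and 11, or 8.75% and 13.8%, where 11% and 12.7% of all genes were. Leaving out single libraries gave 2 to 5 higher (5 without GPC6 replicate 2) and 5 to 14 lower (14 without GPC6 replicate 4, or 17.5%, where 7.76% of all genes were). Leaving out single libraries moved the complex medians from -0.066 to -0.0019 for I, -0.22 to -0.13 for II, -0.15 to -0.087 for III, -0.15 (without GPC6 replicate 1) to -0.0070 (without GPC6 replicate 2) for IV and -0.084 (without GPC6 replicate 4) to 0.053 for V. With library weights that of V was -0.082 and that of II -0.28.

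Of 27 named genes 18 kept their sign in every alternative. The log2 fold changes of the other 9 turned sign as follows. At an equal total they were 0.039 for Cox4i1, 0.029 for Cox6b1, 0.036 for Cox8a, 0.043 for Ndufa4 and 0.043 for Uqcrfs1. In edgeR Cox4i1 was 0.018 and Cox8a 0.11, in DESeq2 Cox4i1 was 0.039, Cox8a 0.13, Ndufa4 0.011 and Uqcrfs1 0.012, and in voom Ndufa4 was 0.0078. With library weights Atp5g3 was -0.011 and Uqcrfs1 0.061. With GPC6 replicates 1 and 2 both left out Cox6b1 was 0.017, Cox7b 0.0082 and Ndufv1 -0.046. Over the fits that leave out 1 library, Cox4i1 ran from -0.18 to 0.096, Cox6b1 from -0.063 to 0.055, Cox7b from -0.50 to 0.12, Cox8a from -0.34 to 0.17, Ndufa4 from -0.11 to 0.11, Ndufa4l2 from -0.48 to 0.15, Ndufv1 from -0.041 to 0.42 and Uqcrfs1 from -0.085 to 0.055.

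With the replicate number as a block, Cox6b1 was 0.020, Ndufv1 was -0.041, the member median was -0.089 and 0 members were called. The shared numbers 2, 3 and 4 correlated at -0.19, 0.12 and 0.30. Correlations over 3 shared numbers cannot decide whether the numbers pair tumors, and the fit reported does not use them. The cause of none of these shifts was tested. Depth limits the scarce isoforms, which rest on few reads.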

Other observations

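Cox7b and Lyrm7, an assembly factor of complex III named here after its values were seen, shared their lowest libraries. Lyrm7 had 11.5, 107 and 101 normalized counts in 3xCR and 117, 8.89, 121 and 173 in GPC6, so 3xCR replicate 2 and GPC6 replicate 2 were far below the other 5. The same 2 libraries had the lowest Cox7b values, 1680.0 and 1400.0, against 2012 to 4007 elsewhere. The split ran within both groups and did not follow the group label. Both low libraries carry replicate number 2, and whether the number links them was not tested.

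The evenest of the members was Ndufv3, an accessory subunit of complex I, which lay between 852 and 950.3 in all 7 libraries, a range of 1.12-fold.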
